A study of Mus musculus with 11 samples.

Results

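The miR-15/miR-16/miR-195/miR-322 seed family was followed in livers of mice that lack telomerase, with and without p53. MicroRNAs (miRNAs) are short RNAs that guide repression of messenger RNAs, mainly through the seed, bases 2 to 8 from their 5′ end. The family was taken by name: mmu-miR-15a-5p, mmu-miR-15b-5p, mmu-miR-16-5p, mmu-miR-195a-5p and mmu-miR-322-5p, which share a seed, and mmu-miR-15a-3p, mmu-miR-15b-3p and mmu-miR-322-3p, which come from the opposite arm of the same hairpins. These are 8 of the 1281 miRNA names in the deposited count table, of which 811 had a read in any library. The choice went by name and seed and used no value threshold, though earlier results of these data were known when it was made. All 8 members passed the filter on low counts that left 388 miRNAs for testing.

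Small RNA was sequenced from liver of untreated mice on a C57/B6 background, in 11 libraries. All mice were G4 telomerase knockouts with short telomeres; the labels do not name the deleted telomerase gene and give no age. The p53-/- group, 6 libraries numbered 6, 7, 8, 10, 11 and 12, also lacked p53, while the p53+/+ group, 5 libraries numbered 1 to 5, had intact p53. The series was designed to find miRNAs that depend on p53. Livers with intact telomeres are not analysed here, and the p53+/+ livers are short-telomere livers and not wild-type ones.

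Members of this family pair through their shared seed with transcripts of cell cycle genes, among them the D-type cyclins and cyclin E, and with the transcript of the survival factor BCL2. The DLEU2 locus that carries miR-15a and miR-16-1 is deleted in many human chronic lymphocytic leukaemias, for which the pair is known as a tumour suppressor. In human cells p53 has been reported to assist the Drosha step that cuts the primary transcripts of miR-16-1, miR-143 and miR-145, a route separate from transcription.

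The mature sequences show what groups the family. They are from RefSeq on GRCm38.p6, written 5′ to 3′ with the seed in capitals. The 5p members all carry AGCAGCA, and miR-497-5p is listed beside them because it carries the same seed and was also sequenced.

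mmu-miR-16-5p: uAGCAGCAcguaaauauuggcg
mmu-miR-195a-5p: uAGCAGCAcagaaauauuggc
mmu-miR-15a-5p: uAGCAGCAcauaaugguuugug
mmu-miR-15b-5p: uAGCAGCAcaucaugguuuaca
mmu-miR-322-5p: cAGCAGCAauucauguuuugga
mmu-miR-497-5p: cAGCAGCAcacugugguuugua

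Outside the seed the 5p sequences diverge. Aligned from the 5′ end, miR-195a-5p differed from miR-16-5p at 2 of 21 positions, miR-15a-5p at 6 of 22, miR-15b-5p at 8 of 22 and miR-322-5p at 10 of 22. The miR-15a-5p and miR-15b-5p sequences differed from each other at 4 of 22 positions. Of the other table names with this seed, miR-195b, miR-6342, miR-6353 and miR-6419 had 0 reads in all 11 libraries.

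The 3p members share no seed with the 5p arms or with each other. Their sequences are shown with those of the miR-16 and miR-195a 3p arms, again with bases 2 to 8 in capitals.

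mmu-miR-15a-3p: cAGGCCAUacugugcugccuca
mmu-miR-15b-3p: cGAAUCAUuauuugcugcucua
mmu-miR-322-3p: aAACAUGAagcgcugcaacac
mmu-miR-16-1-3p: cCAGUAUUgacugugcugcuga
mmu-miR-16-2-3p: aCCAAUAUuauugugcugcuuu
mmu-miR-195a-3p: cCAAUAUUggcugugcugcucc

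All 3 members of this arm, and the other 3 arms shown, contain GCUGC, the reverse complement of the inner bases of the shared 5p seed; the arms face each other in the hairpin. The letters were searched as written in the mature RNA, 1 strand only, and occurred in 34 of 1030 mature sequences, 3.30%.

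The members come from 4 loci, given here on GRCm38 with GENCODE M21 genes. Mir15a at chr14:61632027-61632110 and Mir16-1 at chr14:61631880-61631972 lie 54 bases apart on the minus strand within Dleu2, a noncoding transcript. Mir15a is intronic in all 8 Dleu2 transcripts that span it, and Mir16-1 is exonic in 1 of the 9 that span it. Mir15b at chr3:69009772-69009835 and Mir16-2 at chr3:69009902-69009996 lie 66 bases apart on the plus strand in introns of Smc4, which encodes a condensin subunit. Mir195a at chr11:70235042-70235135 lies 241 bases from Mir497 on the plus strand. Mir322 at chrX:53054255-53054349 lies 200 bases from Mir503 on the minus strand. Neither of these pairs overlaps an annotated gene of a type other than miRNA, and overlap with other miRNA genes was not searched.

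Mature miR-16-5p is made from both Mir16 hairpins and is the same molecule from each, so its reads cannot be divided between chromosomes 14 and 3. The hairpins themselves are shown because their 3p arms differ. The 5p and 3p arms are in capitals, and the Mir15a hairpin is named only.

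Mir16-1: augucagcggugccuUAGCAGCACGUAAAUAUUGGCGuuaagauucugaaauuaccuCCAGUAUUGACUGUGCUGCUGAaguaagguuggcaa
Mir16-2: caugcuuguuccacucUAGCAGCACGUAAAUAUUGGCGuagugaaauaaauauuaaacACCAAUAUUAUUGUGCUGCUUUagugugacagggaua

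The 3p arms gave a reading of each hairpin. miR-16-1-3p had 1380 reads over the 11 libraries and miR-16-2-3p had 15, which is 1.08% of both (exact binomial 95% interval 0.603% to 1.77%). miR-16-1-3p had between 60 and 213 reads in p53-/- libraries and between 44 and 153 reads in p53+/+ libraries, while miR-16-2-3p had at most 4 reads in p53-/- libraries and at most 2 in p53+/+ libraries. Nearly all 3p reads of miR-16 therefore carried the sequence of the hairpin in Dleu2. How much miR-16-5p each hairpin gave was not measured, since the 3p arms may be kept at different rates.

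Library depth bounds what can be seen of these miRNAs. Total counts ran from 2202415 to 6682492 in p53-/- libraries and from 1905609 to 6448820 in p53+/+ libraries, with p53+/+ libraries 1 and 2 and p53-/- library 11 the shallowest. Levels are given as normalised CPM, the counts per library total scaled to a common size and corrected by TMM factors in edgeR. Nothing in the labels says whether the libraries of a genotype are separate animals. The p-values therefore measure only the spread between these samples, which may be technical. Trp53 messenger RNA is not counted in miRNA data, and the genotypes could not be checked on it. The hepatocyte miRNA miR-122-5p averaged 600373 ± 123509 normalised CPM in p53-/- livers (SD, n = 6) and 535983 ± 66296 in p53+/+ livers (SD, n = 5). The single miRNA of 388 that passed the test was miR-34a-5p, a direct p53 target, which was lower in p53-/- livers.

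miR-16-5p was the dominant member. Its median over all 11 libraries was 422.0 normalised CPM, against 99.7 for miR-15b-5p, 44.6 for miR-322-3p, 23.4 for miR-195a-5p, 14.6 for miR-15a-5p, 5.89 for miR-15b-3p, 4.99 for miR-322-5p and 1.90 for miR-15a-3p. The sequences are 21 or 22 bases long, and the same order holds per base; the efficiency of ligation and capture differs between miRNAs and was not corrected. Ranked among the 811 detected miRNAs, miR-16-5p was at place 79, miR-15b-5p at place 128 and miR-15a-3p at place 383.

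Most neighbours in this order kept their places library by library. miR-16-5p lay above miR-15b-5p in 11 of 11 libraries, by a median of 4.22-fold, and theirs were the only neighbouring ranges that did not overlap. miR-15b-5p lay above miR-322-3p in 11 of 11, miR-322-3p above miR-195a-5p in 10 of 11, miR-195a-5p above miR-15a-5p in 10 of 11 and miR-15a-5p above miR-15b-3p in 11 of 11. miR-15b-3p exceeded miR-322-5p in 6 of 11 libraries, so these neighbours did not separate.

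**Figure D1:**
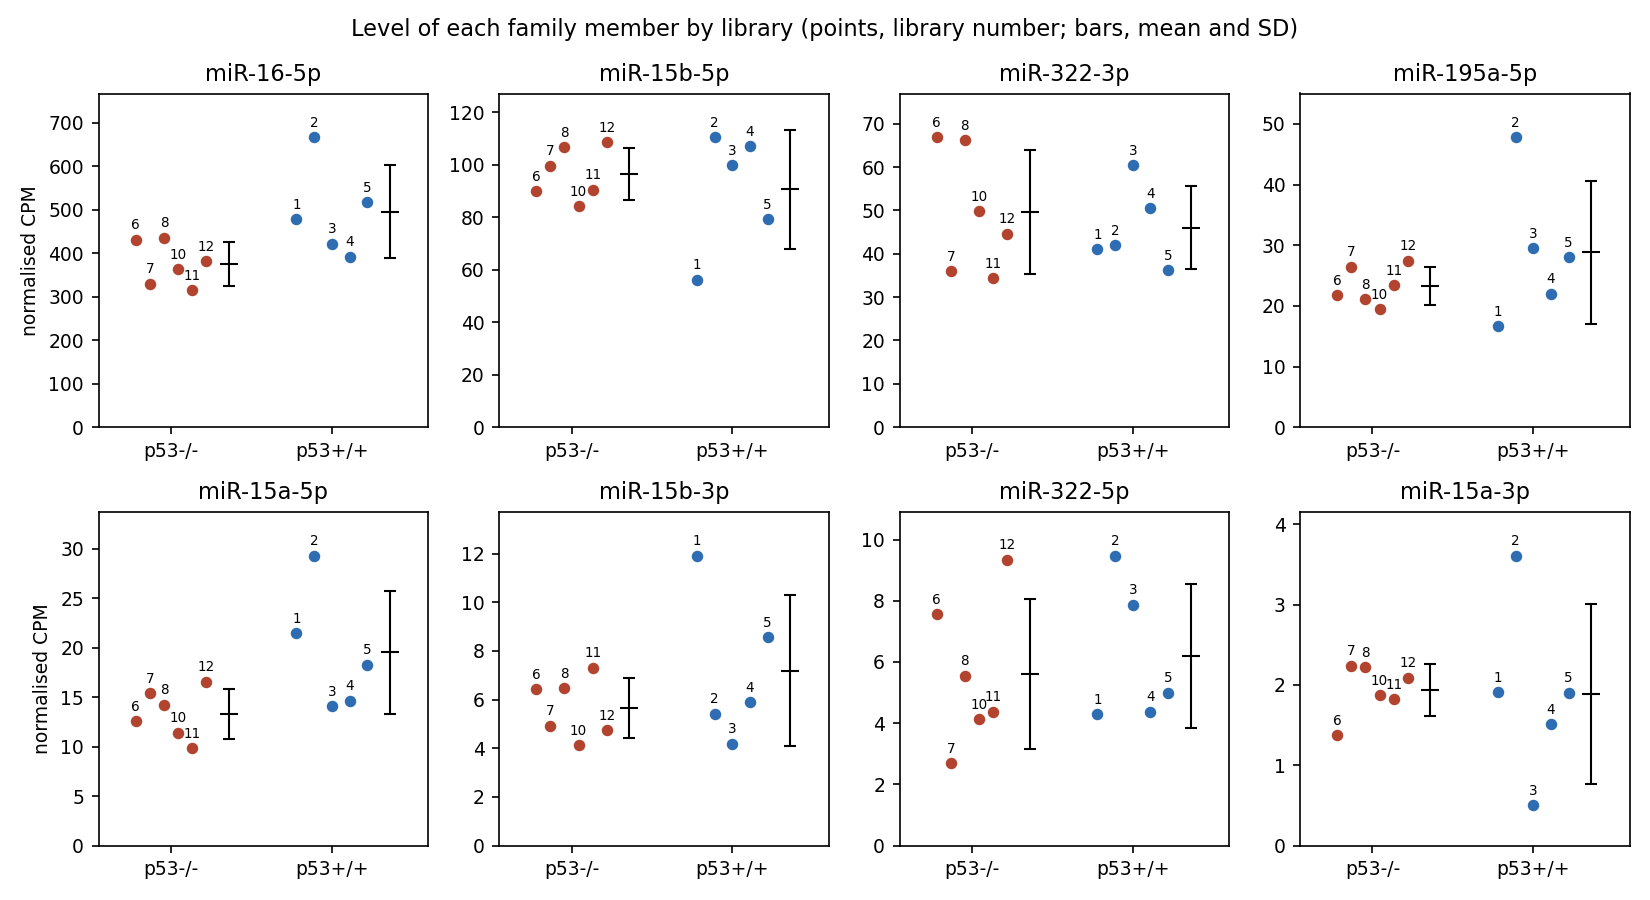
Normalised CPM (vertical axes, each from 0 with its own scale) of the 8 members in p53-/- libraries, left, and p53+/+ libraries, right. Points carry library numbers and bars show mean and SD (n = 6 and n = 5); p53+/+ library 2 has the highest value of each of the 5 5p members, and the genotypes overlap in all 8 panels.

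The comparison of p53-/- with p53+/+ livers asked whether any member depends on p53. No member passed edgeR's test, in which 0.258% of the 388 tested miRNAs were called, a single miRNA. Of the 8 members, 5 had a log2 fold change below 0 and 3 above, with a median of -0.22 (-0.36 without p53-/- library 12 and -0.03 without p53+/+ library 2), beside a median of -0.01 and 51% below 0 over all 388. At an unadjusted p under 0.05, miR-16-5p and miR-15a-5p were lower and no member was higher. Over all tested miRNAs 9.02% were lower at that limit and 8.25% higher, 17.3% in all, so an unadjusted p of this size is common in the table. DESeq2 called 8 miRNAs higher and 9 lower, and 0 of them were members. The genotypes' ranges overlapped for all 8 members; they were separate for 2.32% of the tested miRNAs, with p53-/- lower for 1.03% and higher for 1.29%.

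**Figure D2:**
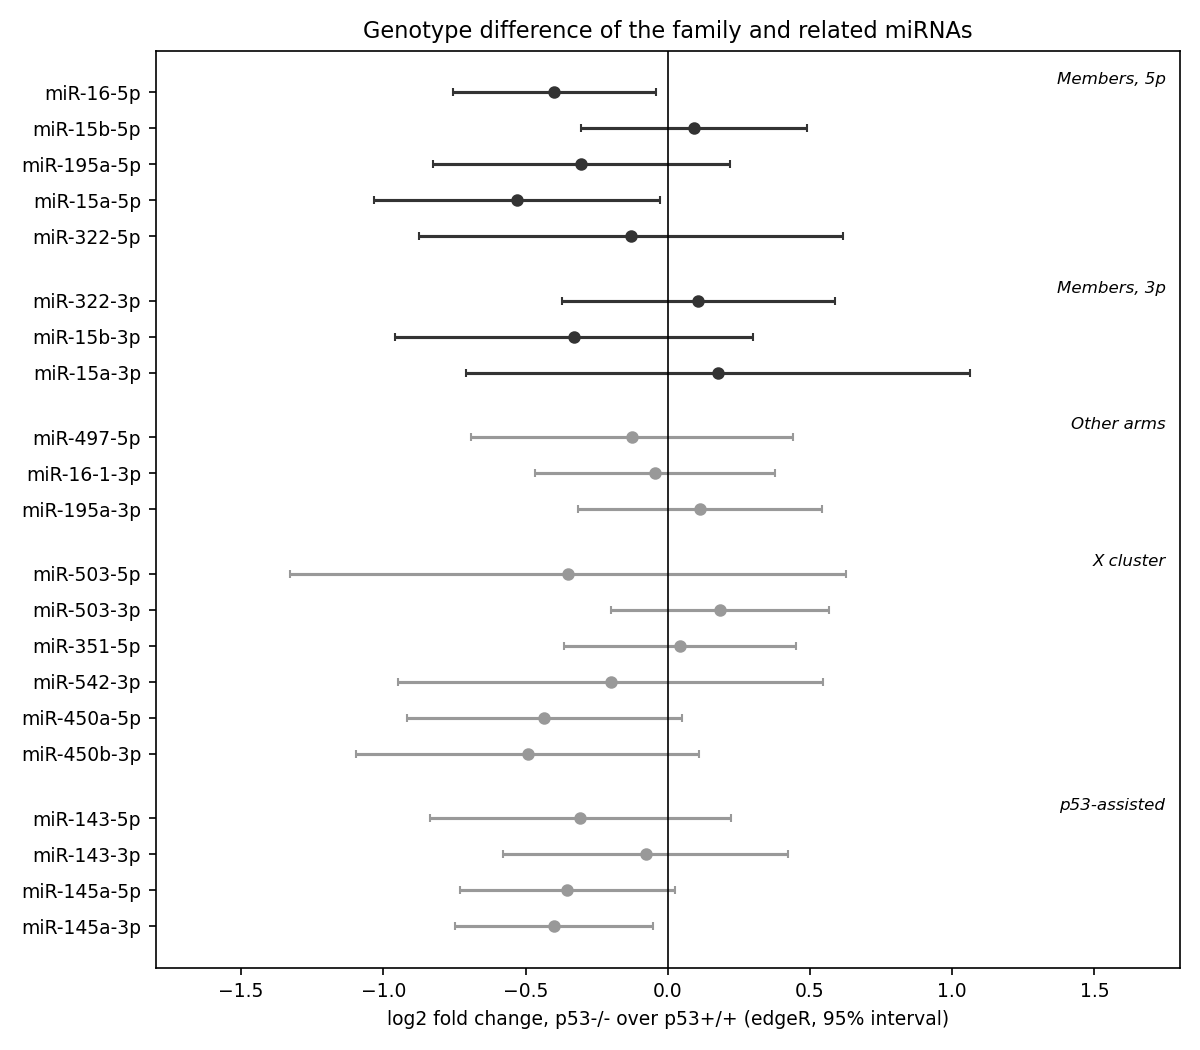
Log2 fold change, p53-/- over p53+/+, from edgeR with its 95% interval (horizontal axis) for the members, black, and for other arms, X-chromosome neighbours and miRNAs with reported p53-assisted processing, grey. Among members, miR-16-5p at -0.40 and miR-15a-5p at -0.53 have unadjusted intervals below 0, and no miRNA drawn passed after adjustment.

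miR-16-5p, the 5p arm of both Mir16 hairpins, was at 479, 667, 422, 392 and 518 normalised CPM in p53+/+ libraries 1 to 5. It had 431, 330, 436, 363, 314 and 381 normalised CPM in p53-/- libraries 6, 7, 8, 10, 11 and 12. Each p53-/- library was under the middle p53+/+ value, but p53-/- libraries 6 and 8 lay above p53+/+ libraries 3 and 4, and the highest p53+/+ value stood in library 2. It averaged 375.8 ± 50.4 in p53-/- livers (SD, n = 6) and 495.6 ± 107.5 in p53+/+ livers (SD, n = 5). The log2 fold change, -0.40, had an SE of 0.17 (95% interval -0.76 to -0.04). Its adjusted p was 0.221 (edgeR, quasi-likelihood, Benjamini-Hochberg). An exact two-sided permutation test of its log2 CPM over every assignment of 6 and 5 libraries gave p = 0.0281, unadjusted. It ranked 55 of 388 by p, and without p53+/+ library 2 the log2 fold change was -0.30.

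The reads behind these levels were ample. miR-16-5p had between 861 and 2731 reads in p53-/- libraries and between 1004 and 2518 in p53+/+ libraries. Its entries under the Mir16-1 and Mir16-2 hairpins differed by at most 7 reads, and the higher was used. Counting error was thus small beside the spread between libraries.

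miR-15a-5p, cut from the same Dleu2 transcript as miR-16-1, was also mostly lower in p53-/- libraries, without passing the test. It had 12.6, 15.4, 14.2, 11.4, 9.86 and 16.6 normalised CPM in p53-/- libraries 6, 7, 8, 10, 11 and 12, against 21.5, 29.3, 14.1, 14.6 and 18.3 in p53+/+ libraries 1 to 5. Each p53-/- library was again under the middle p53+/+ value, and p53-/- libraries 7 and 12 were above p53+/+ libraries 3 and 4. The mean was 13.4 ± 2.53 in p53-/- livers (SD, n = 6) and 19.6 ± 6.23 in p53+/+ livers (SD, n = 5). Its log2 fold change was -0.53 (SE 0.23, 95% interval -1.03 to -0.03; adjusted p by edgeR 0.247), and the exact permutation p was 0.0390, unadjusted. Counts were 27 to 119 in p53-/- libraries and 45 to 87 in p53+/+ libraries.

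With 1 library left out, both of these differences were smallest without p53+/+ library 2, the shallowest library. The log2 fold change was then -0.30 for miR-16-5p and -0.38 for miR-15a-5p. Without p53+/+ library 1 alone, also shallow, miR-16-5p was at -0.40. Leaving out p53-/- library 11 alone, shallow as well, put miR-16-5p at -0.33. Without p53+/+ libraries 1 and 2 the log2 fold change was -0.20 for miR-16-5p and -0.19 for miR-15a-5p in edgeR, with unadjusted p-values of 0.242 and 0.367 over all 9 remaining libraries. The part of depth in these values was not tested.

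miR-15b-5p, the second most abundant member and a product of the Smc4 introns, showed no such order. It had 89.9, 99.7, 107, 84.3, 90.6 and 109 normalised CPM in p53-/- libraries 6, 7, 8, 10, 11 and 12, against 56.3, 111, 99.9, 107 and 79.2 in p53+/+ libraries 1 to 5. The p53-/- values all lay within the p53+/+ range, whose low end was library 1. The log2 fold change, 0.09, had an SE of 0.19 (95% interval -0.31 to 0.49; adjusted p by edgeR 0.814). It was -0.03 without p53+/+ library 1.

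miR-195a-5p, which nearly matches miR-16-5p beyond the seed, had 21.8, 26.5, 21.1, 19.5, 23.4 and 27.5 normalised CPM in p53-/- libraries 6, 7, 8, 10, 11 and 12, against 16.7, 47.8, 29.5, 22.04 and 28.1 in p53+/+ libraries 1 to 5. Again the p53-/- values lay within the p53+/+ range, which was set by the low library 1 and the high library 2. The log2 fold change, -0.30, had an SE of 0.24 (95% interval -0.83 to 0.22; adjusted p by edgeR 0.549). It was -0.09 without p53+/+ library 2.

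miR-322-5p, the mouse counterpart of human miR-424-5p, was the lowest 5p member. It had 7.57, 2.69, 5.55, 4.12, 4.38 and 9.34 normalised CPM in p53-/- libraries 6, 7, 8, 10, 11 and 12, from 12 to 67 reads, against 4.29, 9.48, 7.88, 4.37 and 4.99 in p53+/+ libraries 1 to 5, from 9 to 47 reads. High and low libraries occurred in both genotypes. The log2 fold change, -0.13, had an SE of 0.35 (95% interval -0.88 to 0.62; adjusted p by edgeR 0.880), an interval that spans 0.545-fold to 1.53-fold; without p53+/+ library 2 it was 0.02.

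The 3p members did not pass either. miR-322-3p had 66.9, 36.02, 66.2, 49.8, 34.3 and 44.6 normalised CPM in p53-/- libraries 6, 7, 8, 10, 11 and 12, against 41.0, 42.0, 60.5, 50.5 and 36.1 in p53+/+ libraries 1 to 5. Its log2 fold change of 0.11 had an SE of 0.22 and an edgeR adjusted p of 0.814. Here p53-/- libraries 6 and 8 were highest, and without library 8 the value was -0.03. miR-15b-3p ranged from 4.12 to 7.30 in p53-/- libraries and from 4.19 to 11.9 in p53+/+ libraries, and its log2 fold change of -0.33 had an SE of 0.29 and an edgeR adjusted p of 0.591. It was highest in p53+/+ library 1, the library where its partner miR-15b-5p was lowest, and without that library the log2 fold change was -0.09. miR-15a-3p had 5 to 15 reads in p53-/- libraries and 3 to 9 in p53+/+ libraries, too few for more than a wide interval (log2 fold change 0.18, 95% interval -0.71 to 1.06; adjusted p by edgeR 0.850).

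Summed, the 5 members with the AGCAGCA seed made up 0.0506% ± 0.00574 of all counts in p53-/- libraries (SD, n = 6) and 0.0664% ± 0.0196 in p53+/+ libraries (SD, n = 5). The p53-/- shares ran from 0.0430% to 0.0583% and the p53+/+ shares from 0.0498% to 0.100%, so the ranges overlapped. Library 2 of p53+/+ set the high end alone, with a Wilson 95% interval of 0.0961% to 0.105%, and without it the difference of -0.0158 percentage points was -0.00729. These intervals hold counting error alone, because PCR copies of a molecule cannot be told from separate molecules. With miR-122-5p, which dominates hepatocyte libraries, left out of the total, the means were 0.121% in p53-/- libraries and 0.145% in p53+/+ libraries.

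Within that sum miR-16-5p held 72.9% ± 2.98 of the reads in p53-/- libraries (SD, n = 6) and 77.2% ± 4.29 in p53+/+ libraries (SD, n = 5). miR-15b-5p held 18.9% ± 1.96 in p53-/- libraries (SD, n = 6) and 14.4% ± 4.10 in p53+/+ libraries (SD, n = 5). The remaining 3 members were minor in both genotypes. miR-195a-5p held 4.57% in p53-/- and 4.40% in p53+/+ libraries, miR-15a-5p held 2.60% in p53-/- and 3.02% in p53+/+ libraries, and miR-322-5p held 1.07% in p53-/- and 0.959% in p53+/+ libraries.

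**Figure D3:**
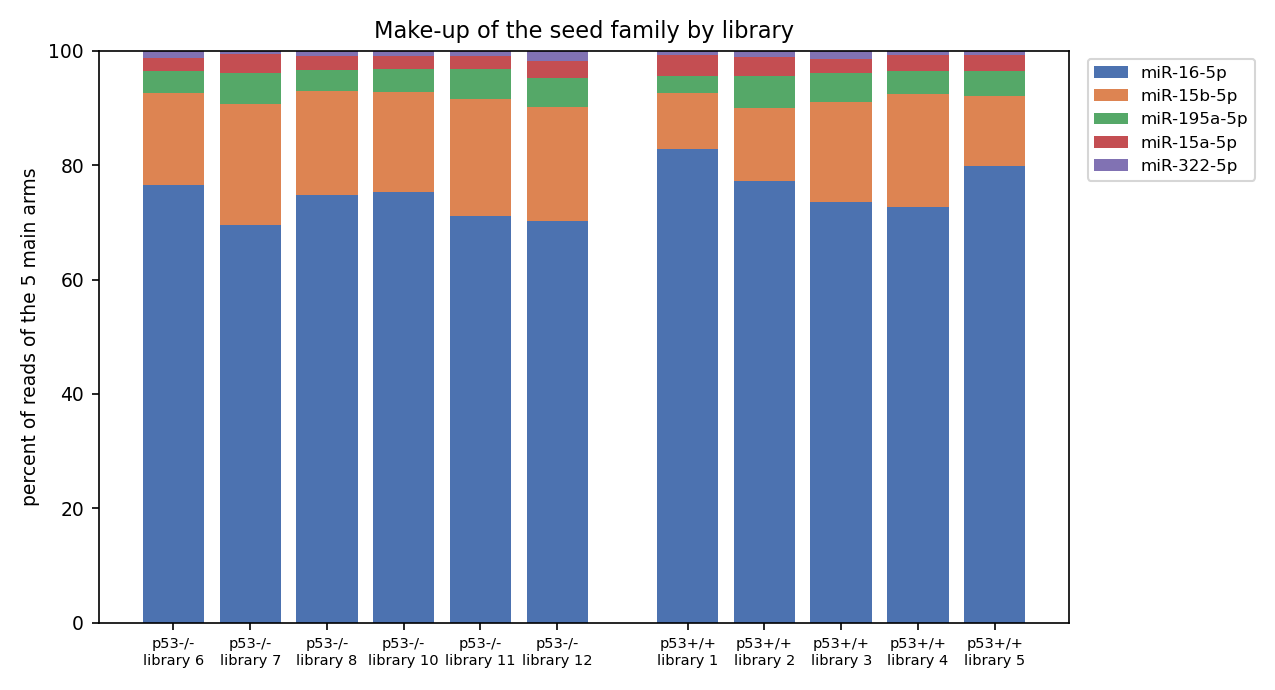
Percent of the reads of the 5 AGCAGCA members (vertical axis) held by each member in every library, p53-/- on the left and p53+/+ on the right. miR-16-5p holds between 69.6% and 82.9% of them in every library, and its share is highest in p53+/+ libraries 1 and 5.

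The balance among members was read from ratios within a library, which do not depend on scaling. These ratios were chosen after the levels were known and carry no test, and 0.5 was added to each count. miR-16-5p over miR-15b-5p ran from 3.31 to 4.79 in p53-/- libraries (median 3.78) and from 3.66 to 8.48 in p53+/+ libraries (median 6.02). p53+/+ libraries 1, 2 and 5 lay above every p53-/- library, while p53+/+ libraries 3 and 4 lay among them. miR-15a-5p over miR-15b-5p showed the same split, from 0.111 to 0.155 in p53-/- libraries and from 0.137 to 0.384 in p53+/+ libraries.

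The ratio of miR-16-5p to miR-15a-5p ran from 21.3 to 33.9 in p53-/- libraries and from 22.1 to 29.8 in p53+/+ libraries, whose values all lay within the p53-/- range. On chromosome 11, miR-195a-5p exceeded its neighbour miR-497-5p in 11 of 11 libraries, by 1.12-fold to 1.93-fold in p53-/- libraries and by 1.38-fold to 2.14-fold in p53+/+ libraries.

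**Figure D4:**
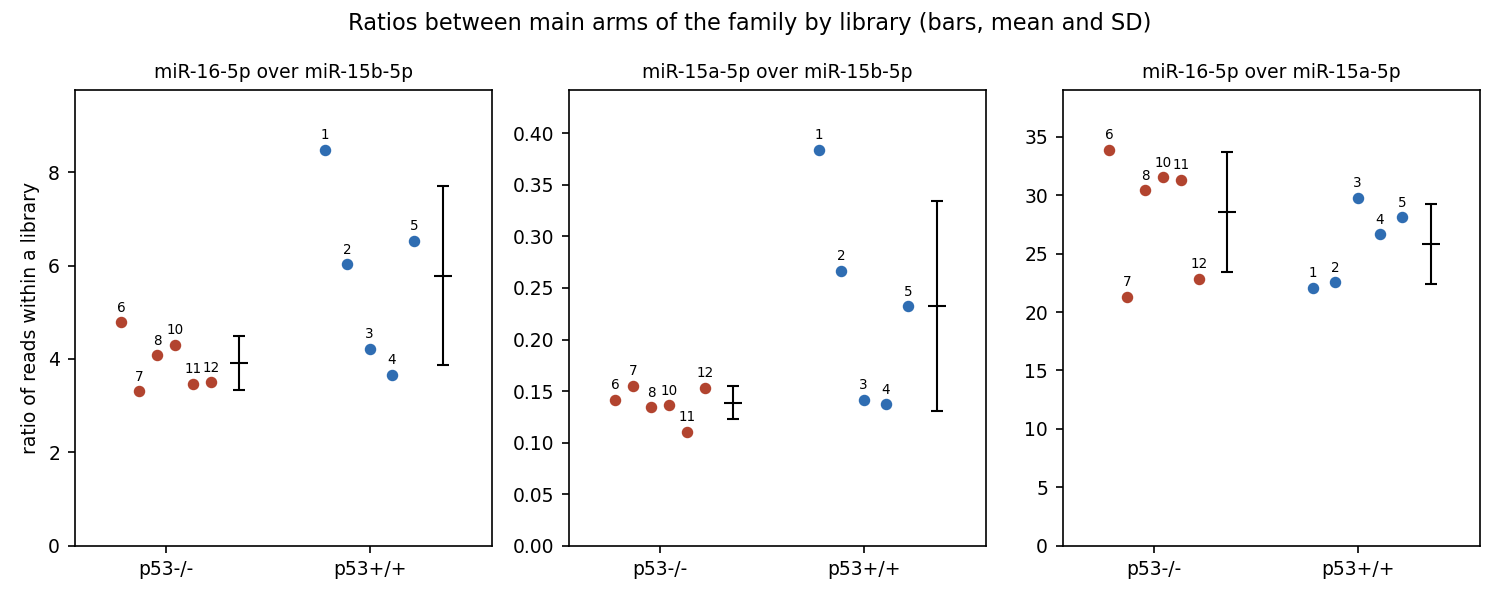
Ratio of reads within a library, after adding 0.5 to each count, for 3 pairs of 5p members (vertical axes from 0), with p53-/- libraries on the left and p53+/+ libraries on the right. Bars show mean and SD (n = 6 and n = 5); p53+/+ libraries 1, 2 and 5 stand above all p53-/- libraries in the ratios over miR-15b-5p and not in miR-16-5p over miR-15a-5p.

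Each hairpin can release either arm, and reads were divided between the arms in different ways across the family. Ligation and capture differ between the arm sequences and were not corrected, so the ratios are of reads. miR-15a and miR-15b were read mainly as their 5p arms, with 800 reads of miR-15a-5p against 95 of miR-15a-3p and 5041 of miR-15b-5p against 305 of miR-15b-3p over the 11 libraries. The 5p arm was higher in all 11 libraries for both. The ratio of miR-15b-5p to miR-15b-3p ran from 12.1 to 22.6 in p53-/- libraries and from 4.65 to 23.4 in p53+/+ libraries, lowest in p53+/+ library 1.

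For miR-15a the 5p over 3p ratio ran from 5.00 to 8.54 in p53-/- libraries, and in p53+/+ libraries 1, 2, 4 and 5 from 7.71 to 10.1. On the log2 scale it averaged 2.71 ± 0.28 in p53-/- libraries (SD, n = 6) and 3.45 ± 0.65 in p53+/+ libraries (SD, n = 5), with overlapping ranges. p53+/+ library 3 had 84 reads of miR-15a-5p and 3 of miR-15a-3p, an uncorrected ratio of 28.0 with an exact counting interval of 9.26 to 138.5.

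miR-322 was read mainly as its 3p arm. That arm was the higher in 11 of 11 libraries, by 4.35-fold to 13.1-fold with a median of 8.73-fold. The arm that carries the family seed thus had the fewer reads in these livers. The hairpin is shown with both arms in capitals.

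Mir322: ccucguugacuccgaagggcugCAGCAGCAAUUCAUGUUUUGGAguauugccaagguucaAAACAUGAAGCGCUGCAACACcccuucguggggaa

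Its neighbour miR-503 was also read mainly as its 3p arm, which was higher in 11 of 11 libraries by a median of 9.72-fold. miR-195a stood between, with 1317 reads of miR-195a-5p and 1430 of miR-195a-3p in all. Its 5p arm was higher in 3 of 11 libraries, and the ratio ran from 0.676 to 1.37 in p53-/- libraries and from 0.664 to 1.88 in p53+/+ libraries. miR-16-5p exceeded miR-16-1-3p by 12.8-fold to 22.5-fold in p53-/- libraries and by 15.2-fold to 33.2-fold in p53+/+ libraries.

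**Figure D5:**
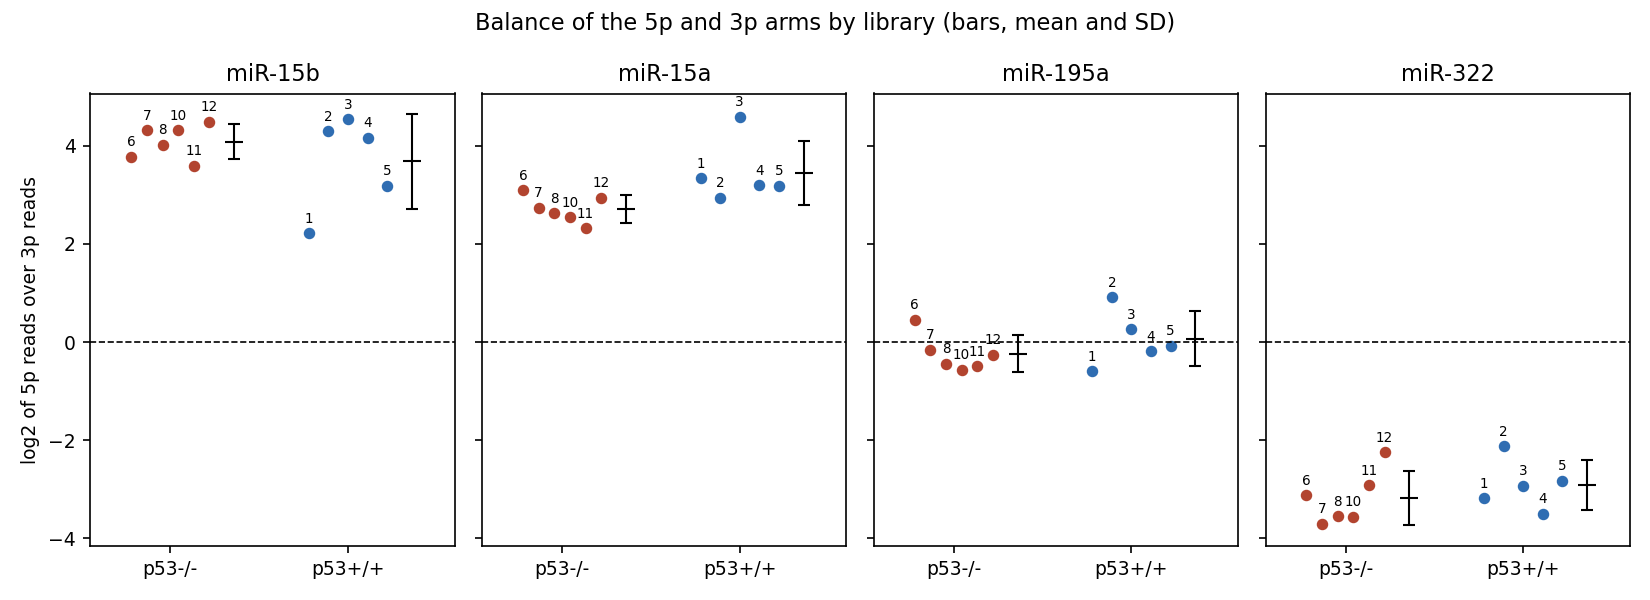
Log2 of 5p over 3p reads, after adding 0.5 to each count, of 4 hairpins by library (vertical axis; the dashed line marks equal arms), with p53-/- libraries on the left and p53+/+ libraries on the right of each panel. Bars show mean and SD (n = 6 and n = 5); miR-15b and miR-15a lie above the line and miR-322 below it in all 11 libraries, and miR-195a lies on both sides.

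How the members varied together was described by Pearson's r of log2 CPM over the 11 libraries, which share depth and library preparation, so no p is given. miR-16-5p and miR-15a-5p went together, with r = 0.84, and 0.73 after each genotype's mean was subtracted. miR-195a-5p and its chromosome 11 neighbour miR-497-5p had r = 0.79, and 0.81 within genotypes. p53+/+ library 2 had the highest value of each of these miRNAs, and r without that library was not computed. miR-16-5p and miR-15b-5p, the most abundant members, had r = -0.08, and 0.10 within genotypes.

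Arms of a hairpin did not track each other uniformly. miR-15b-5p and miR-15b-3p had r = -0.73, and -0.71 within genotypes. p53+/+ library 1 had the lowest miR-15b-5p and the highest miR-15b-3p, and r without it was not computed. miR-15a-5p and miR-15a-3p had r = 0.48, and 0.77 within genotypes. miR-322-5p and miR-322-3p had r = 0.42, and 0.45 within genotypes. miR-16-5p and miR-16-1-3p had r = -0.05, and -0.14 within genotypes. The 3p values of miR-15a and miR-15b rest on few reads.

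Beyond the family, the 3 miRNAs most like each 5p member were taken from the 150 that averaged at least 50 CPM, by r over the 11 libraries. Choosing the highest raises such r values. The second value in each bracket is r within genotypes. For miR-16-5p these were miR-29a-3p (r = 0.91, 0.83), miR-17-5p (0.87, 0.76) and miR-191-5p (0.86, 0.77). For miR-15a-5p they were miR-361-5p (0.87, 0.83), miR-30e-5p (0.87, 0.77) and miR-140-5p (0.86, 0.76). For miR-15b-5p they were miR-24-2-5p (0.81, 0.79), miR-339-5p (0.78, 0.82) and miR-193a-5p (0.75, 0.74). For miR-195a-5p they were miR-339-5p (0.81, 0.83), miR-24-3p (0.77, 0.75) and miR-130a-3p (0.69, 0.68). For miR-322-5p they were miR-210-3p (0.72, 0.76), miR-126-3p (0.60, 0.58) and miR-17-5p (0.56, 0.71).

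Other arms and relatives of the family were measured in the same fit. The list held 9 names and left out miR-6342, miR-6353 and miR-6419, which share the seed and had 0 reads. It included miR-503-5p and miR-503-3p, which do not carry the family seed and are counted again among the X-chromosome neighbours below. Of the 9, 6 were detected and 5 passed the filter. Of those tested, 0 passed in either direction, none had an unadjusted p under 0.05, and the median log2 fold change was -0.04. Leaving out p53-/- library 12 gave a median of -0.13, and leaving out p53+/+ library 2 gave 0.06, so its sign was not stable. The arm with the most reads over all libraries, miR-195a-3p, averaged 28.1 ± 6.32 normalised CPM in p53-/- livers (SD, n = 6) and 25.9 ± 2.00 in p53+/+ livers (SD, n = 5). miR-16-1-3p, the Dleu2-specific arm, averaged 25.7 ± 4.52 in p53-/- livers (SD, n = 6) and 26.5 ± 5.37 in p53+/+ livers (SD, n = 5). Its log2 fold change was -0.04 (SE 0.20, 95% interval -0.47 to 0.38; adjusted p by edgeR 0.934), with overlapping ranges; whether it differs from that of miR-16-5p was not tested.

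The X-chromosome neighbours of miR-322, which are miR-503, miR-351, miR-542, miR-450a and miR-450b, had 11 names in the table. Of these 6 were tested, 0 passed in either direction, and the median log2 fold change was -0.28, with 4 below 0 and 2 above. It was -0.41 when p53-/- library 11 was left out and -0.12 when p53+/+ library 3 was. The most abundant, miR-351-5p, averaged 170.6 ± 28.2 normalised CPM in p53-/- livers (SD, n = 6) and 165.7 ± 44.3 in p53+/+ livers (SD, n = 5), above both miR-322 arms.

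Besides miR-16, p53 is reported to assist the processing of other miRNAs in human cells. The list taken here, which may not be complete, held miR-143 and miR-145. All 4 of their arms were tested and 0 passed. All 4 log2 fold changes were below 0, with a median of -0.33, beside 51% below 0 over all 388 tested miRNAs. Arms of the same hairpin are not independent values. miR-143-3p and miR-145a-5p are also among the 5 mesenchymal markers below, of which 4 were below 0. Of the 4 arms, 1 had an unadjusted p under 0.05 and was lower in p53-/- livers, beside 9.02% of all 388. Whether p53 assisted processing in these livers was not tested. miR-145a-3p, the arm under that limit, had 81.4, 48.0, 59.9, 55.1, 54.4 and 52.6 normalised CPM in p53-/- libraries 6, 7, 8, 10, 11 and 12, against 73.0, 77.2, 80.6, 78.1 and 77.3 in p53+/+ libraries 1 to 5. All p53-/- libraries except library 6 were below every p53+/+ library. Its log2 fold change was -0.40 (SE 0.16; adjusted p by edgeR 0.208). The most abundant arm, miR-143-3p, averaged 4000 ± 325 normalised CPM in p53-/- livers (SD, n = 6) and 4219 ± 1828 in p53+/+ livers (SD, n = 5). The log2 difference was -0.08 with an SE of 0.23 and an edgeR adjusted p of 0.904, and it was 0.01 with limma-voom.

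The family is made in many cell types, so marker miRNAs of the cells that liver samples hold were set beside it. In bulk tissue, fewer cells of a type and less RNA per cell cannot be told apart. Summed over 5 erythroid markers the level was 593.6 to 1347 normalised CPM in p53-/- libraries and 531.2 to 1407 in p53+/+ libraries, and over 6 leukocyte markers 147.5 to 222.2 in p53-/- and 106.2 to 170.3 in p53+/+ libraries. Over 2 endothelial markers the sum was 5772 to 10476 in p53-/- and 6012 to 11013 in p53+/+ libraries, and over 5 mesenchymal markers 5603 to 6627 in p53-/- and 4840 to 8815 in p53+/+ libraries. All of these ranges overlapped, and none of their markers passed the test.

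Pancreas markers stood apart in some p53+/+ libraries: over 4 markers the sum was 6.75 to 27.5 normalised CPM in p53-/- libraries and 2.86 to 410.2 in p53+/+ libraries. Over 3 striated muscle markers it was 4.25 to 40.2 in p53-/- and 4.29 to 45.6 in p53+/+ libraries. Among all markers, miR-150-5p of lymphocytes (log2 fold change 0.68), miR-451a of red cells (-0.49) and miR-194-5p of hepatocytes (-0.52) had an unadjusted p under 0.05. So did miR-375-3p (-2.22) and miR-217-5p (-4.47) of pancreas, and no other marker. These were 1 of 6 tested leukocyte, 1 of 5 erythroid, 1 of 4 hepatocyte and 2 of 2 pancreas markers. Endothelial, mesenchymal and striated muscle markers gave 0 of 2, 0 of 5 and 0 of 2. Over all 388 tested miRNAs 17.3% were under that limit, so such values are common. Markers of the same cells did not all lie on the same side as those named. Of the 5 erythroid markers 3 were above 0, with miR-486-5p, the most abundant, at 0.37. Of the 4 hepatocyte markers 2 were above 0, with miR-122-5p at 0.16. Of the 6 leukocyte markers 4 were above 0 and 2 below, with miR-223-3p at -0.23. The 5 mesenchymal markers, which include miR-143-3p and miR-145a-5p, had 1 above 0 and 4 below. The 2 endothelial and the 2 tested striated muscle markers all lay below 0, beside 51% of all 388. The pancreas values rest on few libraries. miR-375-3p had 2.86, 43.3, 56.3, 15.8 and 178.4 normalised CPM in p53+/+ libraries 1 to 5, and p53+/+ libraries 1 and 4 lay within or below the p53-/- range of 5.72 to 23.2. Exact two-sided permutation tests of log2 CPM gave unadjusted p-values of 0.195 for miR-375-3p and 0.216 for miR-217-5p. Their part in the levels of miR-16-5p and miR-15a-5p was not tested. Over the 11 libraries miR-16-5p had r = 0.30 with miR-451a, and -0.19 within genotypes. With miR-142-3p of leukocytes it had r = 0.44, and 0.76 within genotypes. That marker averaged 5.72 CPM in p53-/- and 5.95 CPM in p53+/+ livers. p53+/+ library 2 was highest in both, at 667 CPM of miR-16-5p and 15.8 CPM of miR-142-3p, the latter from 35 reads. The r without that library was not computed. With miR-126-3p, r was 0.39, and 0.35 within genotypes. It was -0.16 and 0.05 with miR-122-5p, 0.15 and -0.36 with miR-145a-5p, and 0.14 and -0.25 with miR-199a-3p.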

How the data were processed

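For 11 liver libraries the authors deposited raw counts of each mature miRNA under each of its hairpins, and a normalised table in CPM. GRCm38 and limma are named in the submitters' processing notes; for the aligner, the counter and adapter handling, tool and version were not given in the sources used here. A name with several hairpins was counted once, with its highest count (1418 entries for 1281 names). Genotypes were compared on counts with R 4.3.3 and edgeR 4.0.16 (TMM, filterByExpr by genotype, quasi-likelihood F-test, Benjamini-Hochberg over 388 miRNAs, adjusted p threshold 0.05), after the fits were tested on simulated data. The deposited CPM entered 1 alternative only, with a pseudocount of 1. DESeq2 1.42.0, limma-voom 3.58.1, other scalings, no filter and left-out libraries were the other alternatives. Correlations used log2 CPM with a prior count of 2. Depth was 1905609 to 6682492 counts, so counting error is small for miR-16-5p and large for miR-15a-3p.

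The members and lists were chosen with earlier results of these data known. Named were all members, each list's highest arm and arms with an unadjusted p under 0.05, and for likeness the 3 highest r. Mature sequences matched 1029 names exactly, and miR-497-5p through its hairpin symbol. Exact permutation tests took every assignment of 6 and 5 libraries, with a smallest possible p of 0.00216.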

Additional observations from a re-analysis of the deposited data

Results flagged for a closer look

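Of 50 sets of values from a single genotype, 5 held a library whose gap to its nearest neighbour was large for the whole range of the set; chance gives about 1 in 20. The share of library counts in the 5p members was 0.100% in p53+/+ library 2 and 0.0498% to 0.0616% in the other p53+/+ libraries. The log2 ratio of miR-15a-5p to miR-15a-3p was 4.59 in p53+/+ library 3 (exact counting interval of the uncorrected log2 ratio 3.21 to 7.11, from 3 reads of miR-15a-3p) and 2.95 to 3.34 in the other p53+/+ libraries. miR-195a-3p was at 15.8 normalised CPM in p53-/- library 6 and 28.7 to 32.9 in the other p53-/- libraries. miR-195a-3p was at 29.5 normalised CPM in p53+/+ library 5 and 24.6 to 25.3 in the other p53+/+ libraries. miR-145a-3p was at 81.4 normalised CPM in p53-/- library 6 and 48.0 to 59.9 in the other p53-/- libraries.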

How the results depend on the processing

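No paired analysis was possible because the replicate numbers run across both genotypes and no number occurs in both. Of 576 alternative values, 552 kept their direction and side of the threshold or, for values with no test, moved by less than 1 SD, 22 turned direction and 2 counts moved: DESeq2 called 8 miRNAs higher and 9 lower, where edgeR called 0 and 1. No member was called in any of its 22 alternatives; over them the log2 fold change was -0.51 to -0.20 for miR-16-5p (adjusted p 0.107 to 0.660) and -0.69 to -0.19 for miR-15a-5p (adjusted p 0.153 to 0.740). Values with 1 library left out ranged from -0.0314 to 0.145 for miR-15b-5p, -0.393 to 0.0182 for miR-322-5p, -0.0299 to 0.219 for miR-322-3p, -0.187 to 0.457 for miR-15a-3p, -0.171 to 0.0276 for miR-16-1-3p, -0.262 to 0.0931 for miR-497-5p, -0.0842 to 0.221 for miR-351-5p and -0.196 to 0.0871 for miR-143-3p. The members' median was -0.36 to -0.03 with 1 library left out, with the highest value without p53+/+ library 2. Without p53+/+ libraries 1 and 2, miR-322-5p was at 0.00613, miR-497-5p at 0.0368 and miR-503-5p at 0.0119. With p53-/- libraries 10, 11 and 12 only, whose HA numbers in the descriptions are close to those of p53+/+ libraries, miR-322-3p was at -0.13 and miR-351-5p at -0.0442. With library totals as the scale, miR-351-5p was at -0.0235, and with limma-voom miR-143-3p was at 0.0139. The causes were not tested. Depth limits miR-15a-3p, miR-15b-3p and miR-322-5p, whose intervals include changes in either direction.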
